A study of Mus musculus with 4 samples.

Results

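The doublecortin, Lis1 and reelin pathway genes described here act in the movement of young neurons, and they were followed as RNA recovered with the RNA-binding protein Cpeb4. The 10 genes, Dcx, Dclk1, Dclk2, Pafah1b1, Ndel1, Nde1, Vldlr, Lrp8, Dab1 and Cdk5r1, were chosen by name from a table of 53379 genes, and all 10 were present 1 time each. Tissue came from the V-SVZ (ventricular-subventricular zone, a neurogenic layer of the brain) of CD1 mice, wild type and aged 7 or 8 days. RNA bound to protein was precipitated with anti-Cpeb4 in one group and with anti-IgG as the control in the other, and was then sequenced. Strain, genotype, age and tissue were the same in both groups. The experiment was done 2 times with 1 library per antibody each time, which gave 4 libraries, 2 per antibody. Pooling of tissue and the use of different animals in each experiment are not stated in the labels, and all p-values therefore rest on differences between these libraries that may be technical. No library of the starting lysate was analysed here, so the values are levels in precipitates and do not measure how much of each mRNA the tissue held.

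Neuroblasts born in the V-SVZ migrate to the olfactory bulb along the rostral migratory stream. They advance by extending a leading process, into which the nucleus is then drawn along microtubules. Doublecortin (Dcx) binds and stabilizes those microtubules, Lis1 (encoded by Pafah1b1) with Nde1 and Ndel1 regulates the motor dynein that moves the nucleus, and the secreted protein reelin signals through the receptors Vldlr and ApoER2 (encoded by Lrp8) to the adaptor Dab1. Cpeb4 belongs to the cytoplasmic polyadenylation element-binding proteins, which control the poly(A) tails and translation of mRNAs.

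Libraries held 22486721 to 35037171 reads on genes, and each of the 10 genes had between 1449 and 34935 reads in every library. Values are FPKM, the fragments per kilobase of gene after normalization for depth. Fold changes are on the log2(FPKM + 1) scale, which understates changes of low genes, and a gene was called at a limma Benjamini-Hochberg adjusted p under 0.05 over 15745 genes tested. This main fit left 1 degree of freedom per gene and took 14.6 from a variance trend over all genes. Its standard errors (SE) and p-values therefore mostly reflect that trend, and not the replicate spread of each gene. The mRNA that encodes Cpeb4 stood at 26.7 and 38.2 FPKM in the Cpeb4 precipitates of experiments 1 and 2 and at 9.04 and 9.66 FPKM in IgG. Marker counts are to be read against all genes tested, of which 38.8% rose and 11.6% fell. No marker of any list was at 0 in a library. Of 12 neuroblast markers, Dcx among them, 8 rose and 4 were not called, and their summed level was 913 and 979 FPKM in Cpeb4 precipitates against 619 and 612 FPKM in IgG. Markers of other cells were present too. Astrocyte or stem cell markers (4 of 6 rose) summed to 792 and 849 FPKM in Cpeb4 precipitates and 452 and 439 FPKM in IgG, oligodendrocyte lineage markers (5 of 7 rose) to 491 and 460 against 330 and 317 FPKM, mature neuron markers (3 of 6 rose) to 459 and 456 against 369 and 363 FPKM, and ependymal markers (2 of 5 fell) to 65.7 and 55.7 against 78.8 and 75.7 FPKM. Microglia markers (1 of 6 rose, 2 fell) summed to 136 and 136 against 120 and 112 FPKM, endothelial markers (1 of 4 tested fell) to 32.5 and 25.3 against 34.3 and 32.2 FPKM, and choroid plexus or blood markers (2 of 3 fell) to 219 and 197 against 279 and 253 FPKM. These sums are levels in precipitates, so a difference between antibodies does not measure how many cells of a type the tissue held. In lysates of mixed tissue, the number of cells of a type and the RNA per cell cannot be told apart either. Which cells gave the RNA of the 10 genes was not tested.

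Of the 10 genes, with the authors' scaling, 8 rose in Cpeb4 precipitates and none fell, while Dclk2 and Ndel1 were not called. Dcx, Pafah1b1, Dclk1 and Dab1 led, each at least 2-fold higher on the FPKM + 1 scale, as were 10.8% of genes tested, while Vldlr, Nde1, Lrp8 and Cdk5r1 rose less. Over all genes tested, 38.8% were called higher and 11.6% lower. The median log2 fold change was 0.76 over the 10 genes and 0.19 over all genes tested. Log2 fold change also rose with mean level over all genes tested (Spearman rho 0.33). A closer background is the 10100 genes with at least 5 FPKM in 2 libraries, of which 5181 were higher and 937 lower, with a median of 0.31. All 10 genes were in that set, and 8 of the 10 were higher in that fit. For 8 of the 10 genes the libraries of both antibodies did not overlap, each time with Cpeb4 above IgG. Groups did not overlap for 75.9% of all genes tested, with Cpeb4 above for 53.2%. In the authors' deposited table, 8 of the 10 genes were higher at an adjusted p under 0.05 and none was lower, where 21.7% of genes with an adjusted p were higher.

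**Figure D1:**
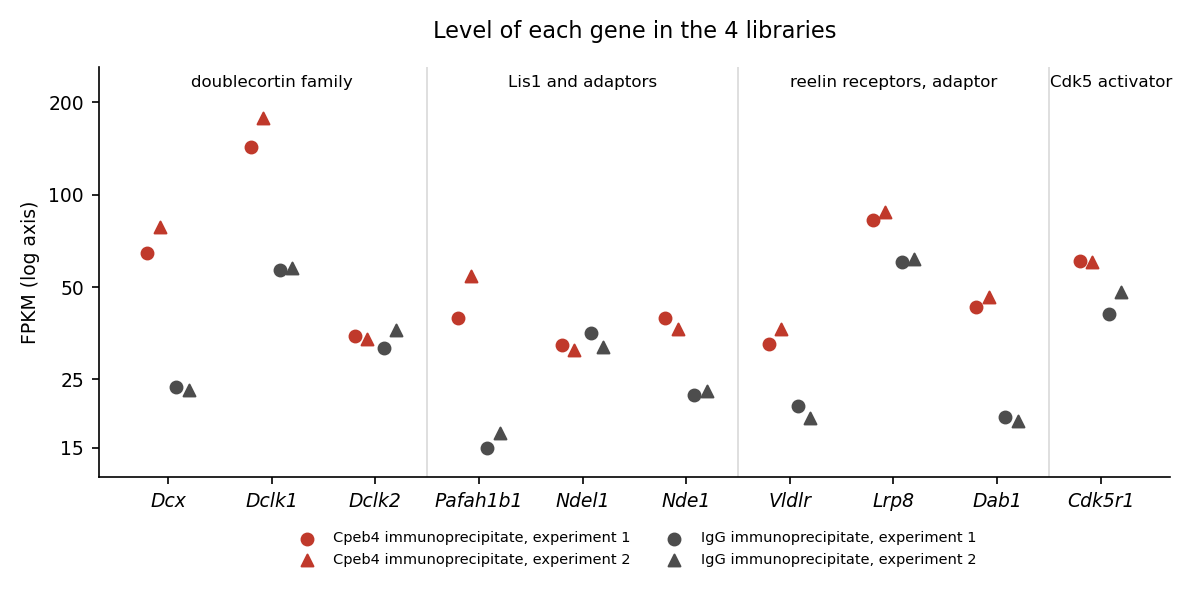
FPKM on a log axis for each of the 10 genes, 1 symbol per library, in red for Cpeb4 and grey for IgG precipitates, circles for experiment 1 and triangles for experiment 2. Dcx stands at 64.5 and 78.2 FPKM with Cpeb4 and 23.6 and 23.2 FPKM with IgG, whereas the symbols of Dclk2 and Ndel1 overlap between antibodies.

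Scaling of the libraries decided part of these calls. With read totals, upper quartile, trimmed mean of M-values or the median of tested genes in place of the authors' scaling, the median log2 fold change of all genes tested fell from 0.19 to between -0.24 and -0.04. Dcx, Dclk1, Pafah1b1 and Dab1 were higher under all 5 scalings, as were 17.3% of genes tested. Vldlr was higher under 4 scalings and Nde1 under 3. Lrp8 and Cdk5r1 were higher with the authors' scaling only. Ndel1 was called lower under the other 4 scalings and Dclk2 under 2 of them. Of all genes tested, read totals called 17.5% higher and 42.4% lower, the upper quartile 19.6% and 37%, trimmed mean of M-values 25.6% and 25.6%, and the median of tested genes 22.9% and 30.8%. With no replicate block the background was 38.2% higher and 10.9% lower, and with no filter on low values 8.35% and 1.87%. Leaving out a library gave 41.5% and 15.9% without Cpeb4 replicate 1, 41.4% and 11.9% without Cpeb4 replicate 2, 26.5% and 5.98% without IgG replicate 1, and 25.3% and 5.51% without IgG replicate 2.

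**Figure D2:**
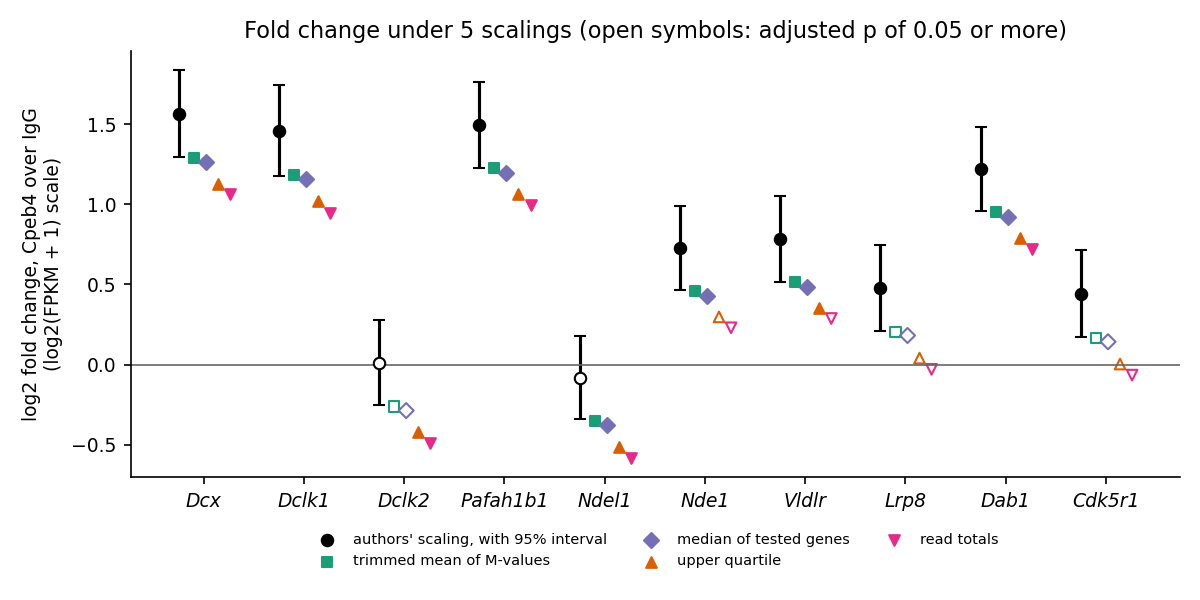
Log2 fold change of Cpeb4 over IgG for the 10 genes with the authors' scaling (black, with 95% intervals from limma) and under the other 4 scalings (coloured), with open symbols at a limma adjusted p of 0.05 or more. Dcx, Dclk1, Pafah1b1 and Dab1 keep filled symbols above 0 throughout, and Lrp8 and Cdk5r1 have a filled symbol with the authors' scaling only.

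Within the doublecortin family, Dcx and Dclk1 rose and their relative Dclk2 did not pass the test. Dcx (X chromosome, 143855842 to 143933396, GRCm38) encodes doublecortin, the microtubule-associated protein used to mark migrating neuroblasts. Its level was 64.5 and 78.2 FPKM in the Cpeb4 precipitates of experiments 1 and 2 and 23.6 and 23.2 FPKM in the IgG precipitates, means of 71.4 ± 9.73 and 23.4 ± 0.284 (SD, n = 2). Both Cpeb4 libraries lay far above both IgG libraries, and the second Cpeb4 library was the highest. Dcx rose 2.96-fold on the FPKM + 1 scale (log2 1.56 ± 0.13 SE, adjusted p = 1.21e-07 by limma), a larger change than that of 97.8% of genes tested.

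Dclk1 (chromosome 3, 55242303 to 55539068) encodes a kinase that carries doublecortin domains and also binds microtubules. It was the most abundant of the 10 genes in the Cpeb4 precipitates, at 143 and 178 FPKM, and stood at 56.9 and 57.8 FPKM in IgG. Both Cpeb4 libraries lay far above both IgG libraries, with a 2.75-fold rise on the FPKM + 1 scale (log2 1.46 ± 0.13 SE, adjusted p = 3.37e-07 by limma). Dclk2 (chromosome 3, 86786150 to 86920952), a second doublecortin-like kinase, was at 34.6 and 33.8 FPKM in Cpeb4 and at 31.7 and 36.1 FPKM in IgG precipitates. Its libraries overlapped, the Cpeb4 level was above IgG in experiment 1 and below it in experiment 2, and the log2 fold change was 0.01 (95% interval -0.25 to 0.28, limma adjusted p = 0.943). With read totals its log2 fold change was -0.49 (limma adjusted p = 0.00169) and with the upper quartile -0.42 (limma adjusted p = 0.0123), and its value was also below 0, with no call, with trimmed mean of M-values (-0.26, limma adjusted p = 0.0986) and the median of tested genes (-0.29, limma adjusted p = 0.0681), so its direction depended on the scaling. Dclk3, the remaining doublecortin-like kinase, rose at log2 0.50 (limma adjusted p = 0.00272) with the authors' scaling only. Its call was lost without IgG replicate 1 or 2, at log2 0.52 or 0.48, with the SE up from 0.12 to 0.18.

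Ratios between 2 genes in the same library do not depend on how libraries are scaled. The ratio of Dclk1 to Dclk2 in FPKM was 4.14 and 5.26 in Cpeb4 precipitates and 1.80 and 1.60 in IgG. Both Cpeb4 libraries thus held at least 2.3 times the ratio of the IgG library of the same experiment. Dcx to Dclk1 differed least, at 0.451 and 0.441 against 0.414 and 0.401, or 1.09 and 1.1 times within an experiment. In all, 12 ratios were computed after the fold changes were known, and 11 did not overlap between antibodies. No such share was computed over pairs of other genes, and single genes did not overlap for 75.9% of genes tested. The count of 11 is therefore not a result about these genes. With 2 libraries per antibody the smallest p that a two-sided exact permutation test can give, without the pairing by experiment, is 0.333. These ratios are therefore described without a call.

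**Figure D3:**
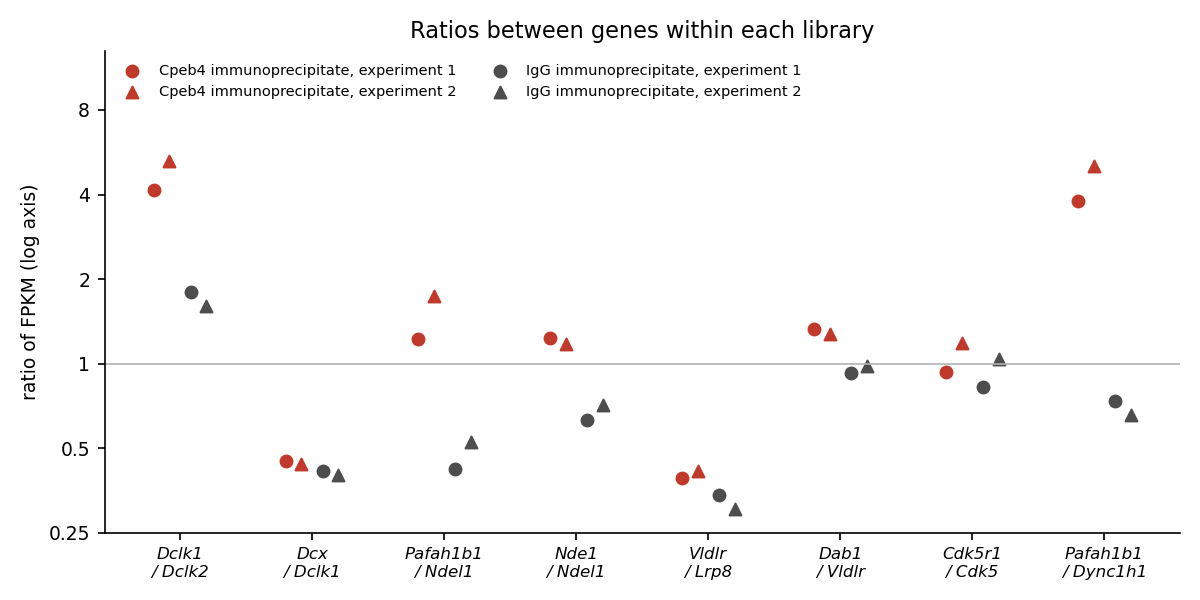
Ratio of FPKM between pairs of genes within each library on a log axis, in red for Cpeb4 and grey for IgG precipitates, circles for experiment 1 and triangles for experiment 2. Dclk1 over Dclk2 and Pafah1b1 over Dync1h1 are far apart between antibodies (4.14 and 5.26 against 1.80 and 1.60, and 3.78 and 5.07 against 0.739 and 0.656), and Cdk5r1 over Cdk5 overlaps.

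Among the genes of the Lis1 complex, Pafah1b1 and Nde1 rose while Ndel1 was not called. Pafah1b1 (chromosome 11, 74673949 to 74724384) encodes Lis1, the dynein regulator whose loss in humans causes lissencephaly. It was at 39.7 and 54.3 FPKM in Cpeb4 precipitates and at 15 and 16.8 FPKM in IgG. It had the lowest IgG level of the 10 genes, and the Cpeb4 libraries differed from each other more than for Dcx (SD 10.3 on a mean of 47.0). Its rise was 2.82-fold on the FPKM + 1 scale (log2 1.49 ± 0.13 SE, adjusted p = 1.56e-07 by limma).

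Nde1 (chromosome 16, 14163275 to 14192928) and Ndel1 (chromosome 11, 68821434 to 68853146) are paralogs whose proteins tether Lis1 to dynein; Nde1 is best known in dividing progenitors and Ndel1 in migrating neurons. Nde1 was at 39.8 and 36.5 FPKM in Cpeb4 and at 22.3 and 22.9 FPKM in IgG precipitates, a 1.66-fold rise on the FPKM + 1 scale (log2 0.73 ± 0.12 SE, adjusted p = 0.000123 by limma). This call was lost with read totals (log2 0.23, limma adjusted p = 0.154) and with the upper quartile (log2 0.30, limma adjusted p = 0.0553). Ndel1 was at 32.5 and 31.3 FPKM in Cpeb4 precipitates and at 35.5 and 32 FPKM in IgG. Its libraries overlapped, with a log2 fold change of -0.08 (95% interval -0.34 to 0.18, limma adjusted p = 0.617), and the other 4 scalings gave -0.58 to -0.35 with a call of lower each time (limma adjusted p between 0.000176 and 0.0255). The ratio of Nde1 to Ndel1 was 1.23 and 1.17 in Cpeb4 precipitates and 0.628 and 0.714 in IgG, so that the order of the paralogs was exchanged. Pafah1b1 to Ndel1 was 1.22 and 1.74 against 0.421 and 0.524.

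Reelin's receptors and their adaptor all rose with the authors' scaling, the adaptor most. Dab1 (chromosome 4, 103619500 to 104744844), the cytoplasmic adaptor phosphorylated when reelin binds, was at 43.2 and 46.4 FPKM in Cpeb4 precipitates and at 18.9 and 18.3 FPKM in IgG. The libraries of each antibody lay close together, and Dab1 rose 2.33-fold on the FPKM + 1 scale (log2 1.22 ± 0.12 SE, adjusted p = 7.19e-07 by limma). Vldlr (chromosome 19, 27216480 to 27254231), the very low density lipoprotein receptor, was at 32.5 and 36.6 FPKM against 20.5 and 18.8 FPKM. It rose 1.72-fold on the FPKM + 1 scale (log2 0.78 ± 0.13 SE, adjusted p = 7.97e-05 by limma), a call lost with read totals (log2 0.29, limma adjusted p = 0.0695).

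Lrp8 (chromosome 4, 107802200 to 107876840) was the most abundant receptor gene, at 82.8 and 88.2 FPKM in Cpeb4 and 60.1 and 61.8 FPKM in IgG precipitates. Its libraries did not overlap, and the log2 fold change was 0.48 ± 0.13 (SE; adjusted p = 0.00475 by limma). That call ended under each of the other 4 scalings (log2 -0.03 to 0.20). It also ended without IgG replicate 1 or 2, although the log2 fold change stayed at 0.46 or 0.50. The SE was then 0.20, as it came from the Cpeb4 pair alone. Dab1 stood in a ratio of 0.522 and 0.526 to Lrp8 in Cpeb4 precipitates and of 0.315 and 0.297 in IgG. Vldlr to Lrp8 was at 0.393 and 0.415 against 0.341 and 0.304.

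Cdk5r1 (chromosome 11, 80477023 to 80481184) encodes p35, the neuronal activator of the kinase Cdk5, which phosphorylates doublecortin and Ndel1. It was at 60.8 and 60.4 FPKM in Cpeb4 precipitates and at 40.9 and 48.1 FPKM in IgG, so the spread lay in the IgG pair. Its log2 fold change of 0.44 ± 0.13 (SE; adjusted p = 0.00863 by limma) was the smallest of the 8 rises. The call ended under the other 4 scalings (log2 -0.07 to 0.17). It also ended without IgG replicate 1 (log2 0.33) and without IgG replicate 2 (log2 0.56), with the SE up from 0.127 to 0.195. Its partner Cdk5, whose sign turned under the other 4 scalings with no call, was at 64.9 and 51.4 FPKM against 49.7 and 46.1 FPKM and was not called (log2 0.27 ± 0.13 SE, adjusted p = 0.0934 by limma). Cdk5 was at log2 0.43 without Cpeb4 replicate 2 and at 0.10 without Cpeb4 replicate 1, in fits that leave out the spread of the Cpeb4 pair. The ratio of Cdk5r1 to Cdk5 overlapped between antibodies, at 0.937 and 1.18 against 0.823 and 1.04.

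By level, the order of the 10 genes differed between antibodies. In IgG precipitates Lrp8 was first, then Dclk1, Cdk5r1, Dclk2, Ndel1, Dcx, Nde1, Vldlr, Dab1 and Pafah1b1. In Cpeb4 precipitates Dclk1 was first, then Lrp8, Dcx, Cdk5r1, Pafah1b1, Dab1, Nde1, Vldlr, Dclk2 and Ndel1. The libraries of most neighbours did not overlap. Those of Pafah1b1 and Dab1, of Nde1 and Vldlr and of Vldlr and Dclk2 overlapped in Cpeb4 precipitates, and those of Dclk2 and Ndel1 and of Vldlr and Dab1 in IgG.

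Called genes among the 10 were mostly long, a property that moved with fold change over the whole table. Gene length was taken as the length implied by the FPKM and the reads. Over 15633 genes the Spearman rho between log2 fold change and length was 0.301, a description in which all genes share the same 4 libraries. The median log2 fold change was 0.00 for genes under 2 kb, 0.21 from 2 to 4 kb, 0.36 from 4 to 6 kb, 0.41 from 6 to 8 kb and 0.38 at 8 kb or more, where 51.4% of genes were higher. Dcx (9.02 kb) and Pafah1b1 (8.52 kb) were the longest of the 10, followed by Dclk2 (7.99 kb), Vldlr (7.92 kb) and Dclk1 (7.91 kb). Ndel1 (2.37 kb) and Nde1 (2.32 kb) were the shortest. Dclk2, at 7.99 kb, had nearly the length of Dclk1 without its rise, and Nde1 nearly that of Ndel1. Over the 10 genes the Spearman rho between log2 fold change and length was 0.588. Whether length caused any of the rises was not tested. With a trend on length and level removed, an alternative chosen after seeing the data, Dcx, Pafah1b1, Dclk1, Dab1, Nde1 and Vldlr were still higher, at log2 1.1, 1.09, 0.88, 0.86, 0.60 and 0.38 (limma adjusted p between 5.42e-14 and 0.00703), against 41.8% of genes higher and 11.9% lower in that fit. That fit took 177 degrees of freedom from the variance over all genes, against 14.6 in the main fit. Its p-values are therefore not comparable with those of the main fit, where these log2 fold changes were larger. With the trend removed, Lrp8 and Cdk5r1 were at log2 -0.05 and 0.04 with no call, and Dclk2 was lower at -0.41 (limma adjusted p = 0.00364).

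**Figure D4:**
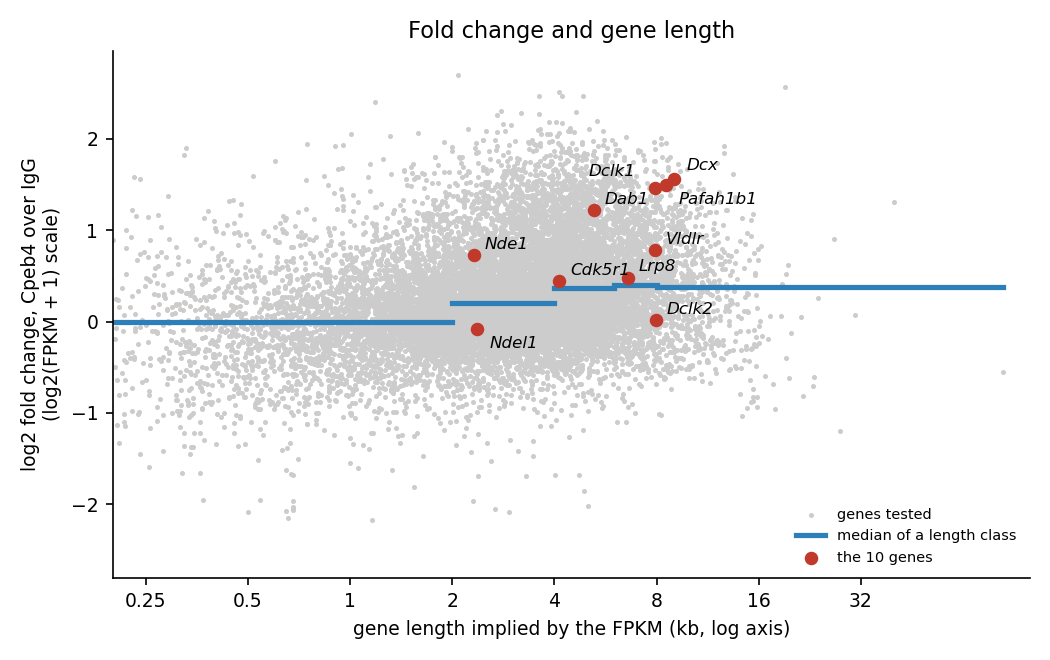
Log2 fold change of Cpeb4 over IgG against the implied gene length in kb on a log axis that starts at 0.2 kb. Grey points are genes tested, blue lines the median of each length class and red points the 10 genes; Dcx, Pafah1b1 and Dclk1 lie far above the median of their class, and Dclk2, as long as Dclk1, lies below it.

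Other RefSeq genes lie within the span of 5 of the 10 genes, which matters because the cDNA kit does not mark strand. Of 8 such genes, 3 were matched in the table and were far below the gene they share a span with: Gm25132 in Dclk1 at 1.03 to 3.22 FPKM, Lrp8os2 in Lrp8 at 0.624 to 1.07 FPKM and Gm12717 in Dab1 at 0.154 to 0.771 FPKM. The other 5, among them those in Dclk2 and Vldlr, were not matched in the table, so reads from them could not be judged. Dcx, Pafah1b1, Ndel1, Nde1 and Cdk5r1 share their span with no other listed gene.

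Profiles most like that of Dcx were looked for among 1504 genes with a mean log2(FPKM + 1) within 0.5 of it. The measure was the root mean square distance over the 4 libraries after centring each gene on its own mean. The nearest 5 were Fam102b at 0.014, the ubiquitin-conjugating enzyme gene Ube2n at 0.016, the fatty acid elongase gene Elovl4 at 0.018, Evi5 at 0.023 and the RNA-binding protein gene Mbnl2 at 0.032. Fam102b, for example, was at 70.0 and 84.2 FPKM in Cpeb4 and at 25.5 and 24.5 FPKM in IgG precipitates. The other 9 genes described here were compared with Dcx without the limit on mean level. Of these, Dclk1 was nearest at 0.056, then Pafah1b1 at 0.094 and Dab1 at 0.183, while Dclk2 and Ndel1 were the farthest at 0.786 and 0.831. All 5 genes named before were nearer to Dcx than Dclk1 was, and how many others were nearer was not counted.

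Further reelin signalling genes were then counted, from the ligand to the kinases and adaptors downstream. Of 18 such genes, 14 rose, none fell and 4 were not called, with a median log2 fold change of 0.74, where 38.8% of all genes tested rose and 11.6% fell. In the closer background of genes with at least 5 FPKM in 2 libraries, 5181 of 10100 were higher, and that fit called 14 of the reelin list higher. Under all 5 scalings 8 of the 18 were higher, against 17.3% of all genes tested. With read totals 8 were higher and 4 lower, where 17.5% of all genes tested were higher and 42.4% lower. Reelin itself (Reln) was at 9.48 and 10.2 FPKM in Cpeb4 and at 10.8 and 11.6 FPKM in IgG precipitates and was not called (log2 -0.17 ± 0.12 SE, adjusted p = 0.259 by limma), although the other 4 scalings called it lower (log2 -0.64 to -0.43). The small GTPase Rap1b was at 227 and 321 FPKM against 76.7 and 65.1 FPKM (log2 1.92 ± 0.16 SE, adjusted p = 1.66e-07 by limma). Cul5, the ubiquitin ligase cullin that ends Dab1 signalling, rose at log2 1.61, and Crk, the adaptor that binds phosphorylated Dab1, at 1.51 (limma adjusted p = 9.24e-08 and 2.74e-07). All 3 rose under all 5 scalings.

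Dynein, dynactin and the partners of Lis1 went both ways. Of 24 tested, 13 rose, 3 fell and 8 were not called, with a median log2 fold change of 0.36, and the share that fell was near the 11.6% of all genes tested (38.8% rose). The fit at 5 FPKM or more called 13 higher and 3 lower, where 5181 of 10100 genes were higher and 937 lower. Under all 5 scalings 6 of the 24 were higher, where 17.3% of all genes tested were. With read totals 6 were higher and 8 lower, where 17.5% of all genes tested were higher and 42.4% lower. Disc1, below 1 FPKM in every library, did not reach the filter. The heavy chain of the motor itself, Dync1h1, was at 10.5 and 10.7 FPKM in Cpeb4 and at 20.2 and 25.6 FPKM in IgG precipitates, a fall of 2.05-fold on the FPKM + 1 scale (log2 -1.03 ± 0.13 SE, adjusted p = 5.4e-06 by limma). Pafah1b3, a catalytic subunit of the acetylhydrolase that Lis1 also joins, and the dynein light chain Dynll2 fell at log2 -0.68 and -0.53 (limma adjusted p = 0.000273 and 0.00186). All 3 were lower under all 5 scalings, although the Dynll2 call ended without IgG replicate 2 (log2 -0.40, SE 0.19). The 14-3-3 protein gene Ywhae, whose product binds phosphorylated Ndel1, rose at log2 1.80, and the light chains Dynlt3 and Dynlrb1 at 1.35 and 1.12 (limma adjusted p between 1.47e-07 and 2.43e-06). The ratio of Pafah1b1 to Dync1h1, a regulator to its motor, was 3.78 and 5.07 in Cpeb4 precipitates and 0.739 and 0.656 in IgG, the widest difference among the 12 ratios.

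Cdk5 and neuronal microtubule genes were close to all genes tested. Of 16, 5 rose, none fell and 11 were not called, and the median log2 fold change was 0.19, where 38.8% of all genes tested rose. At 5 FPKM or more, 5 of this list were higher, where 5181 of 10100 genes were, a larger share. With read totals 2 of the 16 were higher and 8 lower, where 17.5% of all genes tested were higher and 42.4% lower. The dendritic microtubule protein gene Map2 led, at 335 and 449 FPKM against 126 and 127 FPKM (log2 1.60 ± 0.15 SE, adjusted p = 4.09e-07 by limma), followed by Stmn2, a regulator of microtubule growth, at log2 0.84 (limma adjusted p = 7.12e-05); these 2 rose under all 5 scalings. Cdk5r2, which encodes the second Cdk5 activator p39, was low, at 3.48 and 2.74 FPKM against 3.75 and 4.03 FPKM, and was not called (log2 -0.26 ± 0.14 SE, adjusted p = 0.154 by limma), though it was called lower under the other 4 scalings and without Cpeb4 replicate 1 (log2 -0.39, limma adjusted p = 0.0223). The count of rises was 2 without either IgG library and 8 without Cpeb4 replicate 2.

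Counts for guidance and adhesion genes of neuroblasts depended on the scaling. Of 22 tested, 14 rose, 1 fell and 7 were not called with the authors' scaling, with a median log2 fold change of 0.58, where 38.8% of all genes tested rose and 11.6% fell. The fit at 5 FPKM or more, which left out the low genes of this list, called 13 higher, where 5181 of 10100 genes were higher. Under all 5 scalings 6 of the 22 were higher, where 17.3% of all genes tested were. Read totals gave 6 higher and 7 lower, where 17.5% of all genes tested were higher and 42.4% lower. The upper quartile gave 8 and 6, where 19.6% of all genes tested were higher and 37% lower. St8sia4 and St8sia2 encode the enzymes that build the polysialic acid carried by Ncam1 on migrating neuroblasts. St8sia4 was at 9.47 and 14.1 FPKM against 3.92 and 3.49 FPKM (log2 1.42 ± 0.15 SE, adjusted p = 1.39e-06 by limma), and St8sia2 rose at log2 1.17 and the neuregulin receptor gene Erbb4 at 1.19 (limma adjusted p = 1.06e-06 and 2.35e-06). The chemokine receptor gene Cxcr4 fell at log2 -0.47 (limma adjusted p = 0.0126). Its level was low, at 3.34 and 3.41 FPKM in IgG and 2.29 and 2.01 FPKM in Cpeb4 precipitates. That call was lost where low genes were kept (limma adjusted p = 0.0943) and with the length and level trend removed (log2 -0.27, limma adjusted p = 0.127). It was also lost without IgG replicate 1 or 2, at log2 -0.49 or -0.46, with the SE up from 0.15 to 0.19. Prok2 and Gdnf, below 1 FPKM in every library, did not reach the filter.

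**Figure D5:**
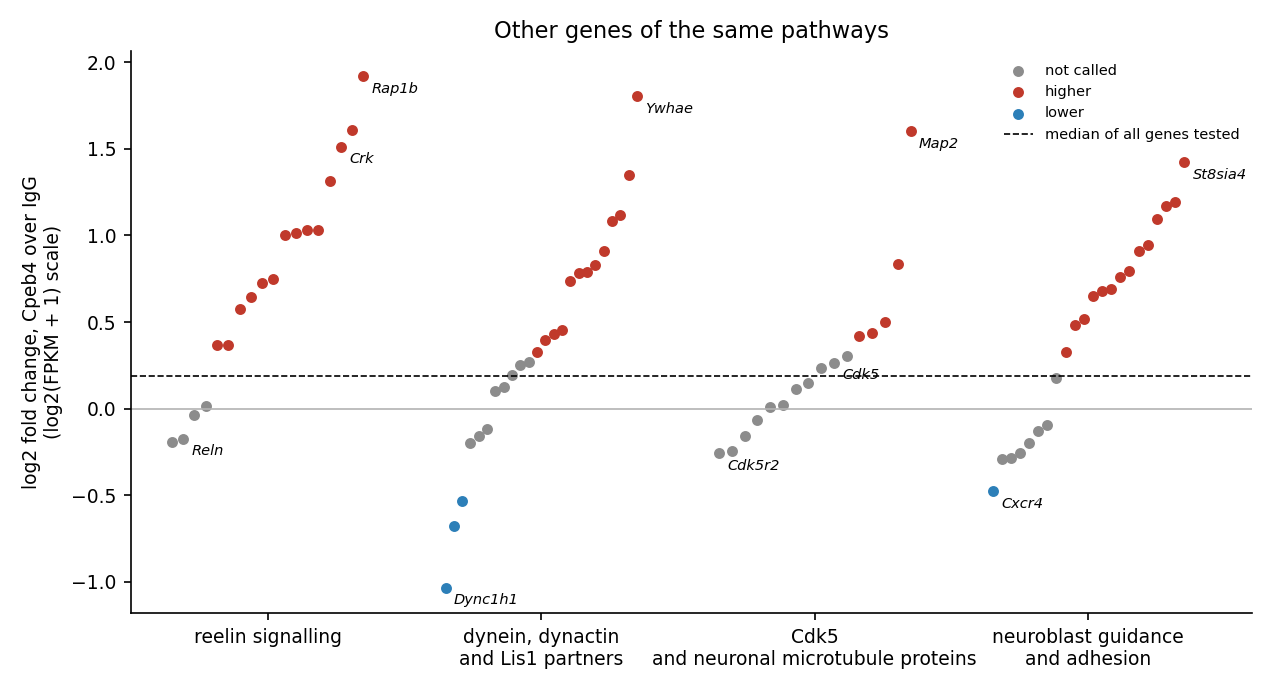
Log2 fold change of Cpeb4 over IgG for the other genes of 4 pathways, 1 point per gene, red for called higher, blue for called lower and grey for not called, with the dashed line at the median of all genes tested (0.19). In reelin signalling Rap1b stands highest at 1.92 and Reln lies at -0.17, not called, and the dynein group reaches from Dync1h1 at -1.03 to Ywhae at 1.80.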

How the data were processed

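RNA from 2 Cpeb4 and 2 IgG precipitates was analysed. Per the labels' protocols, a MAGNA RIP kit served for the precipitation, SMART-Seq v4 for the cDNA and Nextera XT for the libraries. DESeq2 1.26.0, HTSeq 0.6.1p2, STAR 2.6.0c, Trim Galore 0.5.0 and FastQC 0.11.5 are listed, with the build mm10 and no settings, per the submitters' processing notes. Per the file headers, the authors deposited FPKM per library and a mean level (a signal: reads divided by size factors). The authors' deposited comparison gives each gene a p-value and its adjusted form, a score (estimate over standard error), the log2 fold change and the standard error. The table held 0 columns of other samples.

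FPKM fall in steps of 1 read. Joined to the mean level of 30361 genes, the steps put 100% of values within 0.01 of a whole read. These reads were used for depth, scalings and limma-voom, and the last called 6354 genes higher and 1889 lower. Gene length assumes FPKM scaled to size factors times the geometric mean of read totals. Testing used limma 3.58.1 in R 4.3.3 (trended prior, two-sided) on log2(FPKM + 1), with experiment as a block, for genes that reached 1 FPKM in 2 or more libraries. The pairing comes from the experiment number in the labels; across genes, the deviations from the group means in libraries of 1 experiment correlated at 0.002. The chi-square per degree of freedom between replicates was 23.0 for Cpeb4 and 4.97 for IgG, so neither pair was 1 library deposited again. The code was tested on simulated data.

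The 10 genes, the pathway lists and the marker lists were chosen with earlier results of these data known. Named pathway genes are the 3 called genes with the largest rise and the 3 with the largest fall per list, with Reln, Cdk5 and Cdk5r2, Cpeb4 (its mRNA, which does not test recovery of the protein), and the 5 genes without a predicted symbol most like Dcx; genes within the span of others and the genes under the filter were named after their values were seen. Positions are from RefSeq GRCm38.p6, which matched all 10 genes by symbol. Protein and transcript sequences were not used here.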

Additional observations from a re-analysis of the deposited data

How the results depend on the processing

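With experiment as a block, 8 of the 10 genes were higher and 0 lower; with no replicate block the counts were also 8 and 0, and leaving out 1 library gave 6 to 8 higher and 0 lower, with 6 without either IgG library. The fits without a library had no block, and the lone library of an antibody was assumed to vary like the complete pair. The Cpeb4 pair varied more, so standard errors were wider without an IgG library (0.208 for Dcx) than without a Cpeb4 library (0.089 and 0.09). Calls lost without an IgG library therefore do not by themselves show that a rise rested on that library. Read totals gave 4 higher and 2 lower, upper quartile 5 and 2, and trimmed mean of M-values, the median of tested genes and removal of the length and level trend 6 and 1 each. Dclk2 turned to log2 -0.49 with read totals, -0.42 with upper quartile, -0.26 with trimmed mean of M-values, -0.29 with the median of tested genes, -0.41 with the trend removed, -0.003 without Cpeb4 replicate 1 and -0.079 without IgG replicate 1 (range without 1 library -0.079 to 0.105), Lrp8 to -0.029 with read totals and -0.047 with the trend removed, and Cdk5r1 to -0.065 with read totals. Cdk5, not called in any of these, turned to -0.24 with read totals, -0.17 with upper quartile, -0.009 with trimmed mean of M-values and -0.033 with the median of tested genes. Of 140 refits of single genes among the 10, 110 kept direction and side of the threshold. With no filter, with an FPKM of at least 5 and with no replicate block, the log2 fold change equals that of the main fit by construction. Direction could not change in those refits, so the count of 110 does not measure robustness. Without a filter on low values, Lrp8 and Cdk5r1 lost their calls (limma adjusted p = 0.06 and 0.0868), where 46911 genes were tested.

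Reelin signalling had 8 higher and 4 lower with read totals and with upper quartile, and 2 lower with trimmed mean of M-values, 3 with the median of tested genes and 3 with the trend removed. Dynein and Lis1 partners had 6 higher and 8 lower with read totals, and 7 lower with upper quartile, 6 with trimmed mean of M-values and 6 with the median of tested genes. Cdk5 and microtubule genes had 2 higher under each of the other 4 scalings, and 8 lower with read totals, 7 with upper quartile and 4 each with trimmed mean of M-values and the median of tested genes; 3 were higher with no filter, 3 higher and 5 lower with the trend removed, and 2 to 8 higher and 0 to 2 lower without 1 library. Guidance and adhesion genes had 6 higher and 7 lower with read totals, 8 and 6 with upper quartile, and 6 lower with trimmed mean of M-values, 7 with the median of tested genes, 3 with limma-voom, 4 with the trend removed, 0 with no filter, 0 with an FPKM of at least 5 (where Cxcr4, the gene that fell, was not tested), and 0 to 2 without 1 library. Over all genes, limma-voom called 6354 higher and 1889 lower of 15633 tested. The fit at an FPKM of at least 5 called 5181 higher and 937 lower of 10100 tested. Shares of all genes tested under the other settings are given above. The cause of the changes between settings was not tested.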

Other observations

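RefSeq promoter windows (250 bases before to 50 after a start site, GRCm38.p6) were listed for 9 of the 10 genes, in 15 windows. A precipitate of RNA does not measure a promoter, so these are descriptions of the genes only. The homeobox core TAATTA, the same on both strands, was in 3 of the 15 windows, of Dcx and Vldlr, and in 5.29% of all 32851 windows. The 2 windows of Dcx overlap and hold the same core. It is shown because Dlx homeobox factors mark the neuroblasts of this tissue, with the core in capitals.
Dcx: aaaaagcatgTAATTAatcataggag
Vldlr: gttaagctttTAATTAcaggccctca
The Dcx stretch lies at chrX:143933243-143933268 on the minus strand, with the core starting 39 bases before 1 of the 2 start sites listed for Dcx. That stretch is within the Dcx span given above, which ends at 143933396. The Vldlr stretch lies at chr19:27216332-27216357 on the plus strand, with the core starting 142 bases before 1 of the 2 start sites listed for Vldlr. The GC box GGGCGG, searched on both strands as GGGCGG and CCGCCC, was in 5 of the 15 windows, 1 each of Dclk2, Ndel1, Nde1, Vldlr and Dab1, and in 35.7% of all windows, a like share. The E-box CAGCTG was in 1 of the 15 windows, of Vldlr, and in 16.3% of all windows.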
